A study of Homo sapiens with 16 samples.

Results

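The genes described are FN1, which encodes fibronectin, the hyaluronan synthases HAS2 and HAS3, the hyaluronan receptors CD44 and HMMR, and the integrin subunits ITGA5, ITGAV, ITGB1 and ITGB3. They were taken by symbol, 9 of the 25369 genes counted, and were selected on 2 measured values, since FN1 had the most counts of any gene in K1 cells and HAS2 was lower there after treatment. Those values are given as a description without a test. TPC1 and K1 are lines derived from human papillary thyroid carcinoma, both with wild type p53 in the description of the study. They were treated for 24 h with vehicle (0.2% DMSO), with 10 µM nutlin, with 25 µM GSK2830371 or with the combination of both drugs, and polyadenylated RNA was sequenced to ask how gene expression responds when both repressors of p53 are inhibited. Nutlin blocks the ubiquitin ligase MDM2, and GSK2830371 inhibits the phosphatase PPM1D. Each treatment of each line has 2 libraries, 16 in all. TPC1 was grown in RPMI and K1 in DMEM, so line and medium cannot be told apart. The labels do not say whether libraries of both lines were prepared and sequenced together. A difference between library sets that follows the line cannot be told apart from it either. Each line is a single established culture. The labels do not say that libraries came from separate cultures. The study describes its replicates in general as prepared independently, without naming these libraries, so p-values measure the spread between these libraries, which may be technical.

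Fibronectin is a secreted glycoprotein that cells assemble into fibrils of the extracellular matrix. Integrins are receptors made of an alpha and a beta subunit, and alpha5 with beta1 (ITGA5, ITGB1) and alphaV with beta3 (ITGAV, ITGB3) bind the arginine-glycine-aspartate motif of fibronectin. Hyaluronan is a long sugar polymer made at the plasma membrane by the synthases and bound at the cell surface by CD44. HMMR also binds hyaluronan, and inside the cell it is a protein of the mitotic spindle. FN1 transcripts are well known to be abundant in papillary thyroid carcinoma.

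Counts assigned to genes ran from 30789887 to 76648552 per TPC1 library and from 28888686 to 37161241 per K1 library. Levels are given in CPM, the count of a gene relative to the total of its library. Of 7 thyroid follicular markers, 3 averaged at least 1 CPM in each line, led by the transcription factor PAX8 at a mean of 363 CPM in TPC1 and 792 CPM in K1. FOXE1 and TG were the others of these 3. The thyroid markers NKX2-1, TSHR and SLC5A5 stayed at or below 0.64 CPM in all libraries. Of 6 epithelial markers, 3 averaged at least 1 CPM in each line, led by KRT8. The mean of KRT8 was 420 CPM in TPC1 and 760 CPM in K1. The epithelial cadherin CDH1 stayed at or below 0.0692 CPM. Each of 3 endothelial markers reached at most 0.768 CPM and each of 3 leukocyte markers at most 0.217 CPM. Of 8 fibroblast and mesenchymal markers, 5 averaged at least 1 CPM in each line, led by the filament gene VIM. The mean of VIM was 2809 CPM in TPC1 and 6403 CPM in K1. ACTA2 reached 141 CPM in TPC1 and 38.2 CPM in K1, and PDGFRB reached 14.4 and 13.6 CPM. The collagen gene COL3A1 reached at most 0.0331 CPM.

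All are protein-coding genes counted over their exons. In the GENCODE annotation of GRCh37, the build of the authors, the matrix and hyaluronan genes lie with FN1 at chr2:216225163-216300796 (minus strand), HAS3 at chr16:69139556-69152622 (plus strand), CD44 at chr11:35160429-35253949 (plus strand) and HMMR at chr5:162887209-162918947 (plus strand). The integrin subunits lie with ITGA5 at chr12:54789045-54813050 (minus strand), ITGAV at chr2:187454737-187545628 (plus strand), ITGB1 at chr10:33176201-33294720 (minus strand) and ITGB3 at chr17:45331193-45391109 (plus strand).

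The 250 bases before the transcription start of FN1 and of HMMR are shown because FN1 took the most counts in K1 and HMMR changed most from DMSO. Sequences are from RefSeq on GRCh38.p14, where 7 of the 9 genes had an entry. In FN1 (chr2:215436069-215436318, minus strand) the capitals mark TGACGTCA, the cAMP response element, which 1.85% of 35116 windows of 300 bases around RefSeq starts hold, and a match to CCAAT. In HMMR (chr5:163460382-163460631, plus strand) the capitals mark matches to ATTGG or its complement CCAAT, found in 34.6% of windows, and TTTGAATTTGAA, the tandem form of the cell cycle homology element TTTGAA. The element TTTGAA was found in 15.2% of windows on either strand. Its tandem form, a longer string and thus rarer, was in 8 of 35116, or 0.0228%. That share is a description and does not measure how unusual the HMMR promoter is. The windows of CD44, HAS3 and ITGA5 held none of these motifs.
FN1: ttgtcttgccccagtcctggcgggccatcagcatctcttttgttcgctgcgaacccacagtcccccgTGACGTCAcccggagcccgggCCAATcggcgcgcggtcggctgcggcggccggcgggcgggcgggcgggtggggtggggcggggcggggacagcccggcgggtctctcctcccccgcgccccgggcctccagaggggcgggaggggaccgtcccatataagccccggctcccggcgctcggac
HMMR: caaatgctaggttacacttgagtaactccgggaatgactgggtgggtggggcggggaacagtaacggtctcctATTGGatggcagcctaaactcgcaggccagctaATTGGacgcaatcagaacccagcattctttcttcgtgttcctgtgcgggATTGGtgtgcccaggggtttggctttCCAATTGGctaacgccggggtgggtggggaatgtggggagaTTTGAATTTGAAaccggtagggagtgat
A match of letters is a description of the sequence and was not tested for binding.

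Under nutlin in TPC1, FN1 rose and HAS3, HMMR and ITGB3 fell, which made 4 of 8 genes called against 35.5% of 15273 genes tested (17.5% higher and 18% lower). A gene was called when edgeR's quasi-likelihood test, adjusted by Benjamini-Hochberg over all genes, gave a p below 0.05 and the change was over 1.5-fold. HAS2 was left out of all these counts, because it was too low in TPC1 and had chosen the set in K1. The combination in TPC1 lowered HAS3, HMMR and ITGB3, 3 of 8 genes, against 44.2% of all genes (21.7% lower). Against nutlin alone, the combination lowered these same 3 of 8 genes, where 12.1% of all genes were called (5.66% lower). GSK2830371 alone changed 0 of 8 genes in TPC1 by edgeR (1.4% of all genes), and 0 by DESeq2. There 1 gene had an unadjusted p under 0.05, HAS3 at 169 and 154 CPM. In K1, nutlin lowered HMMR, 1 of 8 genes, against 9.27% of all genes (5.43% lower). The combination in K1 lowered HAS3 and HMMR, 2 of 8 genes, against 15.7% of all genes (8.09% lower) from DMSO and against 2.68% (1.52% lower) from nutlin alone.

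FN1 took more counts than any other gene in each of the 8 K1 libraries, with 6.47% to 7.26% of all counts, a ranking by counts and not per length. The gene in second place, the ferritin subunit FTH1, took 0.755% to 0.927%. In TPC1, FN1 took 0.299% to 0.689% of counts and ranked between 2 and 19, behind EEF1A1 in every library. Per kilobase of its transcript (8.39 kb), the mean FN1 level over the 8 libraries was 8155 CPM in K1 and 534 CPM in TPC1. The FN1 level in untreated K1 was 68471 and 64670 CPM, and in untreated TPC1 it was 4597 and 3072 CPM. All K1 libraries therefore lay above all TPC1 libraries, with a fitted difference under DMSO of 4.12 ± 0.21 (SE) on the log2 scale. Without FN1 the remaining 8 genes took 0.352% to 0.468% of counts in TPC1 and 0.554% to 0.666% in K1.

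FN1 rose in TPC1 under nutlin, and its nutlin change in K1 did not pass the test. In TPC1 it was at 6890 and 5820 CPM with nutlin, above both DMSO libraries, a log2 fold change of 0.76 ± 0.25 (SE; adjusted p = 0.027 in edgeR). This call was lost without DMSO replicate 3 (log2 0.53, adjusted p = 0.14 in edgeR) or without nutlin replicate 1 (0.63, adjusted p = 0.13). The nutlin rise was also called with the replicate number as a block (0.79 ± 0.088, SE, adjusted p = 1.0e-06 in edgeR). With the combination, TPC1 libraries held 5425 and 3258 CPM, a range that overlapped the DMSO libraries. Within each TPC1 replicate number, the combination lay above DMSO and below nutlin. With the replicate number as a block, it was 0.22 ± 0.088 (SE) from DMSO (adjusted p = 0.036 in edgeR) and -0.57 ± 0.088 from nutlin (adjusted p = 9.7e-05), both under 1.5-fold and not called. The combination was -0.53 ± 0.25 from nutlin (adjusted p = 0.15 in edgeR), and it was called as lower without combination replicate 1 (-0.93, adjusted p = 0.035). With GSK2830371 alone they held 3788 and 2994 CPM, which also overlapped DMSO. In K1 the FN1 level was 72324 and 72602 CPM with nutlin, 66218 and 66916 CPM with GSK2830371, and 68707 and 67480 CPM with the combination. The nutlin group was the highest in K1 and did not overlap the others, while the combination, DMSO and GSK2830371 groups overlapped in that order. The nutlin change in K1 was 0.13 ± 0.056 (SE) on the log2 scale (adjusted p = 0.091 in edgeR). The difference between the lines in the nutlin change of FN1 was -0.67 ± 0.27 (SE; K1 minus TPC1) and did not pass (adjusted p = 0.068 in edgeR), but it passed with the replicate number as a block (-0.69, adjusted p = 0.0003). It also passed without TPC1 DMSO replicate 1 (-0.95, adjusted p = 0.0092 in edgeR), TPC1 combination replicate 1 (-0.67, 0.017) or 3 (-0.69, 0.013), and without the filter on low counts (-0.70). For the combination the difference was -0.26 ± 0.27 (adjusted p = 0.49 in edgeR), called without TPC1 combination replicate 3 (-0.60, adjusted p = 0.044).

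**Figure D1:**
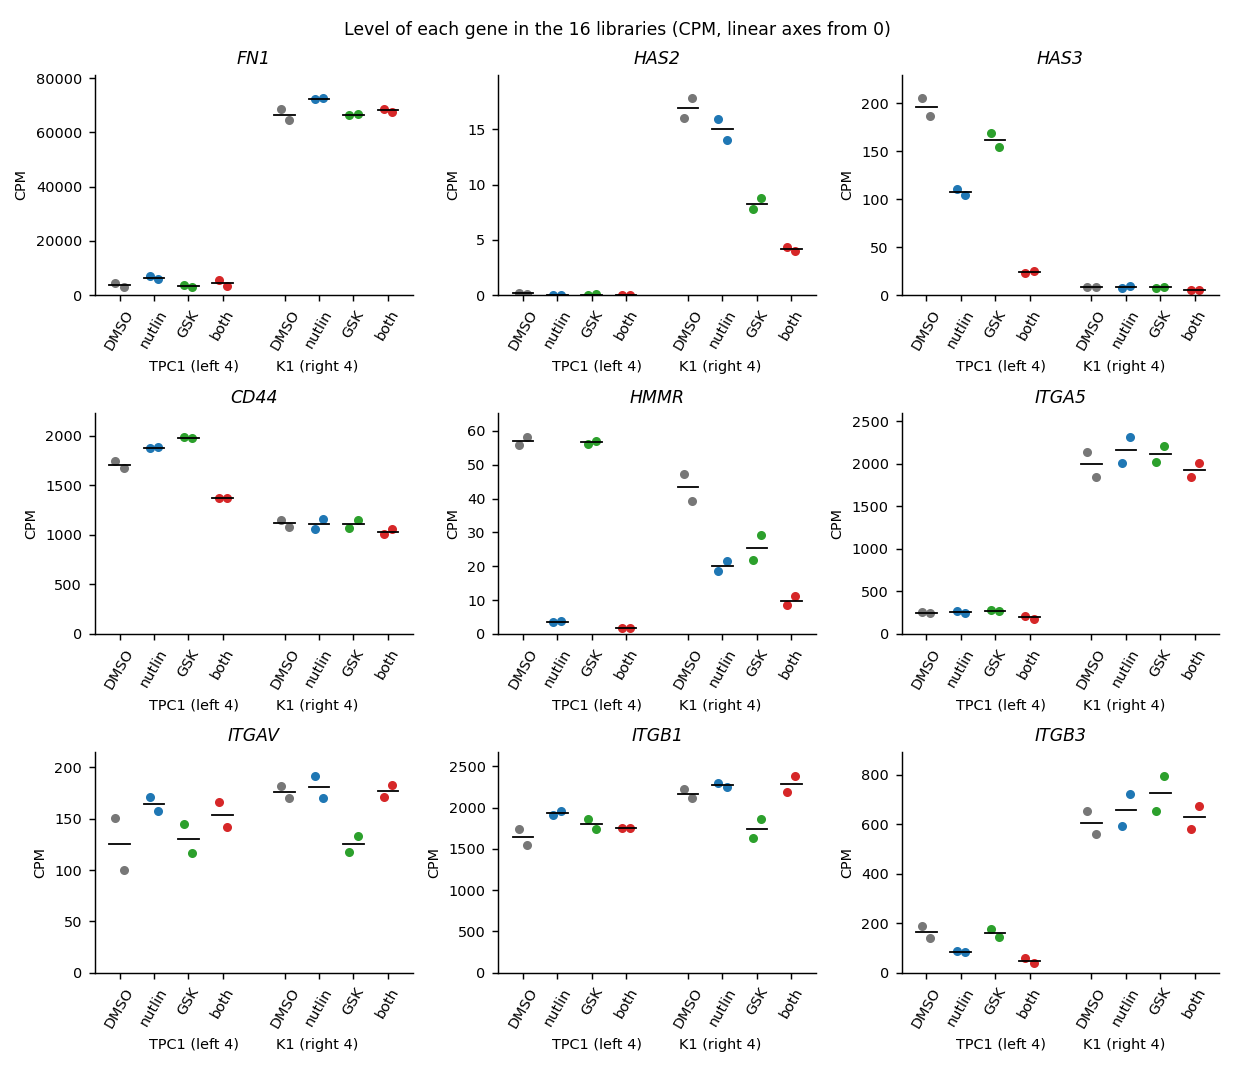
Level of each of the 9 genes in CPM on linear axes that start at 0. Points are the 2 libraries of each group and bars their mean, with TPC1 on the left and K1 on the right of each panel (both: nutlin with GSK2830371). FN1 and ITGA5 lie higher in every K1 library than in any TPC1 library, and HAS3 lies higher in every TPC1 library.

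The lines differed in which hyaluronan synthase they transcribed. HAS3 was the main synthase transcript of TPC1, where it made up 99.9% to 100% of the counts of HAS2 and HAS3 together. In K1 both were low, and HAS3 made up 30.2% (95% Clopper-Pearson interval 26.7 to 33.8) to 39.3% (35.8 to 42.9) of that sum in the DMSO and nutlin libraries. That share was 47.5% and 49.9% with GSK2830371 and 54.2% and 59.3% with the combination. The transcripts are 4.24 kb (HAS2) and 4.191 kb (HAS3) long, and per kilobase the share in K1 ran from 30.4% to 59.6%. The interval covers counting error only. The third synthase gene, HAS1, had at most 10 counts in any library. HAS2 and HAS3 together reached 196 ± 13.1 CPM (SD, n = 2) in untreated TPC1 and 25.1 ± 0.902 CPM (SD, n = 2) in untreated K1.

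HAS3 fell in TPC1 with nutlin and fell further with the combination. Its level in untreated TPC1 was 205 and 187 CPM. With nutlin it was 111 and 105 CPM, a log2 fold change of -0.83 ± 0.087 (SE; adjusted p = 4.1e-05 in edgeR). With the combination it was 23.0 and 24.9 CPM, -2.98 ± 0.094 from DMSO (adjusted p = 1.3e-08 in edgeR). No treatment group of TPC1 overlapped another for HAS3, in the order DMSO, GSK2830371, nutlin and combination. Against nutlin alone the combination lowered HAS3 by -2.15 ± 0.092 (adjusted p = 2.6e-06 in edgeR). The interaction, the change under the combination beyond the sum of both single drugs on the log2 scale, was -1.82 ± 0.12 for HAS3 (adjusted p = 0.00026 in edgeR).

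In K1, HAS3 was at 8.44 and 7.88 CPM under DMSO, and the difference from TPC1 was -4.59 ± 0.12 on the log2 scale (adjusted p = 1.1e-14 in edgeR). It was at 6.89 and 9.08 CPM with nutlin and at 7.03 and 8.76 CPM with GSK2830371, both ranges around the DMSO values. With the combination it was at 5.12 and 5.74 CPM, below all other K1 libraries. That change was -0.62 ± 0.15 from DMSO (adjusted p = 0.0044 in edgeR), close to the 1.5-fold limit. It fell short of that limit without DMSO replicate 1 (-0.57) or without combination replicate 1 (-0.55). The change from nutlin alone was -0.61 ± 0.15 (adjusted p = 0.021 in edgeR), and it was lost without nutlin replicate 2 (-0.37, adjusted p = 0.25), combination replicate 1 (-0.54, 0.13) or combination replicate 2 (-0.68, 0.076).

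HAS2 in K1 was highest in its DMSO libraries, at 15.98 and 17.8 CPM. It was at 15.96 and 14.0 CPM with nutlin, at 7.76 and 8.80 CPM with GSK2830371 and at 4.33 and 3.94 CPM with the combination. The 4 groups stood in that order without overlap, although nutlin replicate 1 and DMSO replicate 1 were nearly level. The log2 difference from DMSO was -0.17 ± 0.098 (SE) with nutlin, -1.02 ± 0.105 with GSK2830371 and -2.06 ± 0.12 with the combination. These values are a description without a test, since the fall of HAS2 in K1 chose the set. In TPC1, HAS2 had 7 and 8 counts under DMSO and 1 and 4 counts with GSK2830371. No read was counted in the nutlin and combination libraries of TPC1. Summed over each TPC1 group, HAS2 was at 0.137 CPM under DMSO (95% Poisson interval 0.077 to 0.226), from 15 reads. The upper limits were 0.038 CPM with nutlin and 0.037 CPM with the combination. The DMSO level was 4.39-fold the level of 3 counts over the nutlin group and 4.56-fold that over the combination group. These intervals cover counting error only. No test of the difference is reported, since HAS2 passed the filter in TPC1 only through DMSO.

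**Figure D2:**
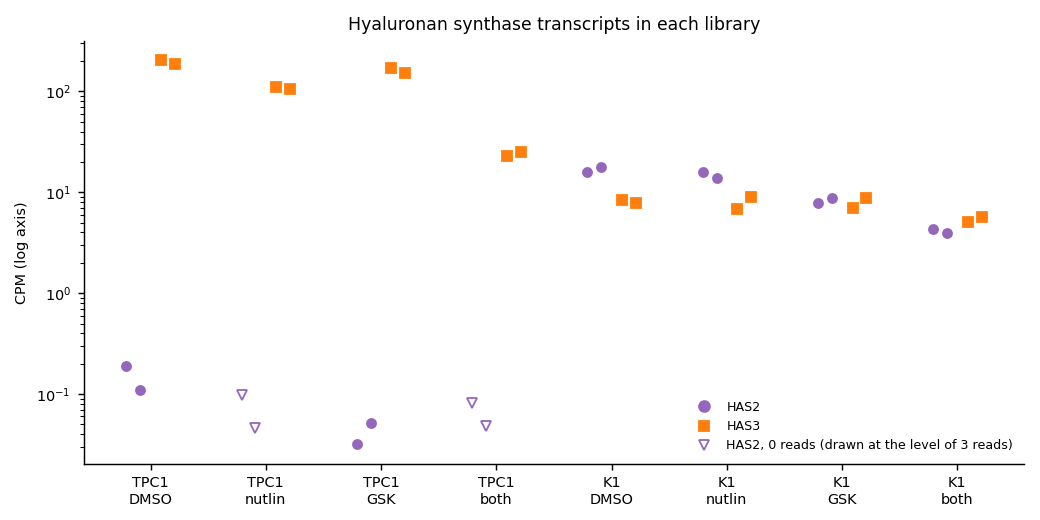
HAS2 (circles) and HAS3 (squares) in CPM on a log axis, with 1 symbol for each library. Open triangles mark TPC1 libraries with 0 HAS2 reads at the level of 3 reads. HAS3 lies above HAS2 in all TPC1 libraries, and the order turns in K1 between the DMSO and the combination libraries.

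CD44, the main surface receptor for hyaluronan, was abundant in both lines and moved little. In TPC1 it was at 1744 and 1677 CPM under DMSO, 1874 and 1888 CPM with nutlin and 1989 and 1975 CPM with GSK2830371. With the combination it was at 1373 and 1374 CPM, below all other TPC1 libraries. The change from DMSO was -0.26 ± 0.075 (SE) on the log2 scale (adjusted p = 0.012 in edgeR) and stayed under 1.5-fold. The interaction was -0.60 ± 0.11 (adjusted p = 0.013 in edgeR) and was called, but it lay so near the limit that 8 alternatives lost it. Among them, it missed the adjusted p without nutlin replicate 1 (0.078) or 3 (0.082) and without GSK2830371 replicate 1 (0.067) or 3 (0.064), and it fell under 1.5-fold without combination replicate 1 (-0.58). With CD44, HAS3 and HMMR the TPC1 interaction counted 3 of 8 genes, all lower, against 6.32% of all genes (3.5% lower). In K1 the CD44 level ran from 1006 to 1156 CPM over the 8 libraries, with no call. Untreated K1 was -0.62 ± 0.076 below TPC1 (adjusted p = 2.0e-06 in edgeR), under 1.5-fold when totals were taken without FN1 (-0.52) or without K1 DMSO replicate 2 (-0.57).

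HMMR fell furthest from DMSO among the 8 genes tested, with nutlin and with the combination, in both lines. In TPC1 it was at 56.0 and 58.2 CPM under DMSO and at 56.2 and 57.1 CPM with GSK2830371. With nutlin it was at 3.38 and 3.76 CPM, a log2 fold change of -3.95 ± 0.092 (SE; adjusted p = 7.3e-09 in edgeR). With the combination it was at 1.82 and 1.69 CPM, -4.98 ± 0.1 from DMSO (adjusted p = 2.6e-09 in edgeR). The 2 low groups were far below the others and did not overlap, and the combination was -1.03 ± 0.11 below nutlin (adjusted p = 0.00033 in edgeR). The interaction of the drugs was -0.97 ± 0.13 (adjusted p = 0.0044 in edgeR).

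In K1, HMMR was at 47.4 and 39.3 CPM under DMSO, 18.6 and 21.7 CPM with nutlin and 8.51 and 11.2 CPM with the combination. These 3 groups did not overlap. The change was -1.09 ± 0.14 with nutlin (adjusted p = 4.8e-05 in edgeR) and -2.17 ± 0.15 with the combination (adjusted p = 7.5e-08 in edgeR). The combination was -1.08 ± 0.16 below nutlin (adjusted p = 0.00091 in edgeR). With GSK2830371 alone HMMR was at 21.7 and 29.3 CPM, below DMSO and overlapping nutlin, and no test of that contrast is reported.

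Spindle and mitotic genes listed beside HMMR fell in both lines. Of 10 such genes, 9 fell with nutlin in TPC1 (18% of all genes were lower) and 9 in K1 (5.43%), with medians of -3.54 and -1.03 on the log2 scale, where the median of all genes was -0.0018 and -0.0017. The mitotic kinase gene PLK1 fell by 5.53 ± 0.11 in TPC1, and the checkpoint kinase gene BUB1 fell by 4.35 ± 0.091. In K1 the spindle motor gene KIF11 fell by 1.36 ± 0.14. With the combination 9 of 10 fell in each line, against 21.7% of all genes lower in TPC1 and 8.09% in K1, with medians of -4.15 in TPC1 and -2.05 in K1. From nutlin to the combination 6 of 10 fell in TPC1 (5.66% of all genes) and 8 of 10 in K1 (1.52%). In bulk RNA, fewer cells in mitosis and less RNA per cell cannot be told apart.

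Genes that bind or break down hyaluronan were also counted. Of 10 tested in TPC1, 2 were called lower with nutlin, against 18% of all genes, and 5 were lower with the combination, against 21.7%, with a median of -0.92. HAPLN3, a link protein that ties hyaluronan to proteoglycans, fell by 2.31 ± 0.17 with the combination in TPC1 and by 1.25 ± 0.21 in K1. LAYN, which encodes the hyaluronan receptor layilin, fell by 0.87 ± 0.14 in TPC1. TMEM2, a cell surface hyaluronidase, fell by 0.91 ± 0.11 from nutlin to the combination in TPC1. Its mean there was 534 CPM under DMSO, 779 CPM with nutlin and 408 CPM with the combination. In K1, 1 of 11 was called with nutlin (9.27% of all genes) and 1 with the combination (15.7%), HAPLN3 each time.

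**Figure D3:**
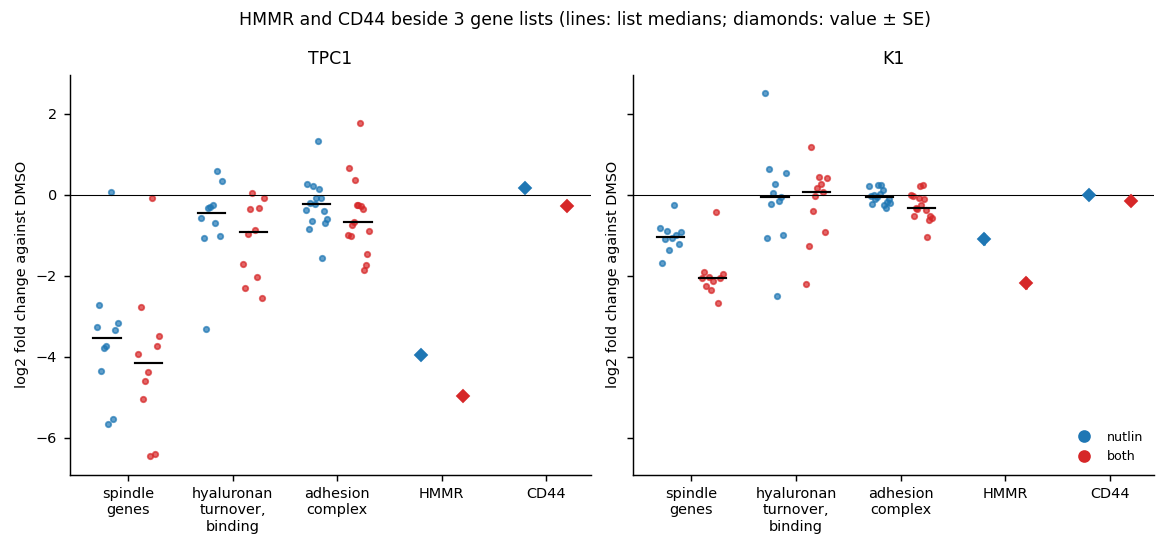
Log2 fold change against DMSO with nutlin (blue) and the combination (red) in TPC1 and K1, for genes of 3 lists (points; lines are medians) and for HMMR and CD44 (diamonds, ± SE). HMMR lies among the spindle genes in both lines, and CD44 lies near 0.

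Genes of hyaluronan synthesis and precursor supply were called lower in TPC1 against DMSO. Of 7 tested, 3 fell with nutlin, against 18% of all genes, and 5 with the combination, against 21.7%, with medians of -0.52 and -0.72. From nutlin to the combination 1 of 7 rose, GFPT1 by 0.76 ± 0.11, and 1 fell, GFPT2 by 0.98 ± 0.12. There 12.1% of all genes were called (5.66% lower). GFPT2, of the first step of the hexosamine pathway, fell by 1.67 ± 0.12 with the combination. GNPNAT1 and PGM3, later enzymes of that pathway, fell by 0.99 ± 0.078 and 0.92 ± 0.12. In K1, 0 of 8 were called with nutlin by edgeR, where 9.27% of all genes were. An unadjusted p under 0.05 was found for 3 of the 8, a number not compared with all genes. GFPT1 alone was called with the combination, higher by 0.68 ± 0.057, where 15.7% of all genes were called.

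Untreated K1 held more transcript of the fibronectin receptor subunits than untreated TPC1. ITGA5 was at 2141 and 1846 CPM in K1 and 257 and 240 CPM in TPC1, a difference of 3.001 ± 0.1 (SE) on the log2 scale (adjusted p = 2.3e-13 in edgeR). ITGB3 was at 653 and 560 CPM in K1 and 188 and 142 CPM in TPC1, 1.88 ± 0.16 higher (adjusted p = 2.6e-08 in edgeR). The lines did not overlap for either gene under any treatment. ITGB1, which pairs with many alpha subunits, was 0.40 ± 0.081 higher in K1 and ITGAV 0.49 ± 0.13 higher, both under 1.5-fold. ITGAV was called when the replicate number was a block (0.64) or without TPC1 DMSO replicate 1 (0.78). With HAS3 and CD44 lower and ITGA5 and ITGB3 higher, 4 of 7 genes were called between the untreated lines, against 46.2% of 16738 genes (25% higher and 21.2% lower). FN1 and HAS2 were left out of that count. A shift of the scale bears on these values, since the median of all genes was 0.018 in the main fit and 0.12 with totals taken without FN1.

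Of 13 other integrin subunits that passed the filter within each line, 9 were higher and 3 lower in untreated K1 (25% and 21.2% of all genes), with a median of 1.09 on the log2 scale. ITGA2B and ITGA4 passed through 1 line alone and were left out of that count. ITGA4, another fibronectin receptor subunit, was at 31.1 ± 0.782 CPM (SD, n = 2) in untreated K1 and had no read in any TPC1 library, so it was at least 1135-fold higher in K1 with 3 counts over the group as the floor. ITGA2, a collagen receptor subunit, was 2.33 ± 0.16 higher, and ITGA6, a laminin receptor subunit, was -1.48 ± 0.077 lower.

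**Figure D4:**
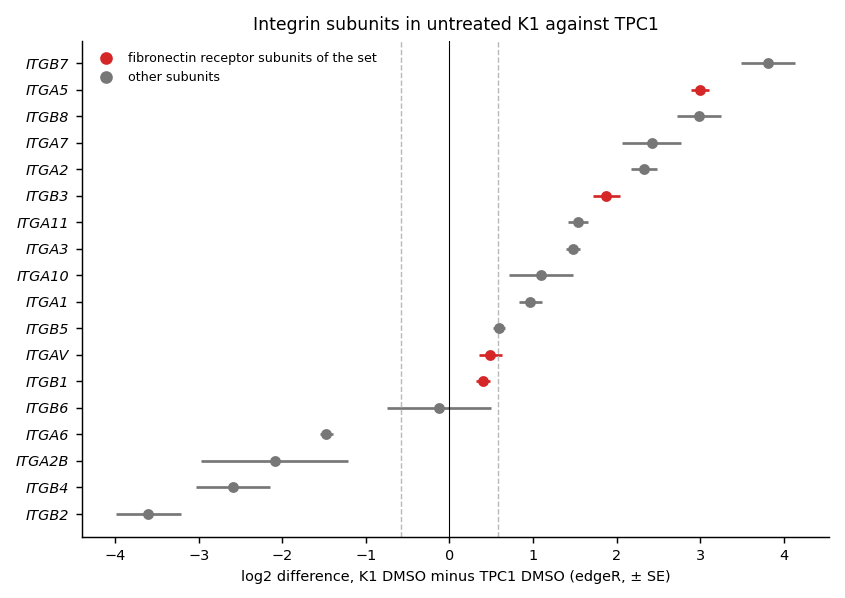
Log2 difference between untreated K1 and untreated TPC1 for 18 integrin subunits, with the SE of the fit. Dashed lines mark 1.5-fold and red points the subunits ITGA5, ITGAV, ITGB1 and ITGB3, all higher in K1. ITGA4, with no read in TPC1, is not drawn.

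Nutlin and the combination lowered ITGB3 in TPC1, and no treatment contrast of it was called in K1. In TPC1 it was at 86.2 and 82.3 CPM with nutlin, below both DMSO libraries, -0.94 ± 0.18 (SE; adjusted p = 0.0018 in edgeR). With the combination it was at 58.4 and 40.2 CPM, -1.70 ± 0.18 from DMSO (adjusted p = 3.7e-05 in edgeR). The combination was -0.76 ± 0.18 below nutlin (adjusted p = 0.015 in edgeR), a call lost without nutlin replicate 1 (adjusted p = 0.076), nutlin replicate 3 (0.061) or combination replicate 3 (0.089). Its interaction of -0.68 ± 0.25 did not pass (adjusted p = 0.13 in edgeR), but passed with the replicate number as a block (-0.72, adjusted p = 0.00029). ITGB3 was at 179 and 146 CPM with GSK2830371, within the DMSO range. In K1 it ran from 560 to 796 CPM. The ITGB3 gene overlaps another coding gene on the same strand in the GENCODE annotation of GRCh37. The study counted reads with a UCSC annotation, and whether such an overlap affects the ITGB3 counts was not tested.

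ITGA5, ITGAV and ITGB1 moved by less than 1.5-fold in every tested contrast between treatments. ITGA5 ran from 179 to 282 CPM in TPC1, lowest with the combination at 208 and 179 CPM, -0.31 ± 0.086 from DMSO (adjusted p = 0.011 in edgeR). Its TPC1 interaction was -0.48 ± 0.12 (adjusted p = 0.044 in edgeR). In K1, ITGA5 ran from 1841 to 2315 CPM, and all groups overlapped a neighbour. ITGB1 in TPC1 was at 1740 and 1547 CPM under DMSO and 1915 and 1961 CPM with nutlin, 0.27 ± 0.086 higher (adjusted p = 0.024 in edgeR). ITGAV lay between 100 and 171 CPM in the TPC1 libraries and between 118 and 192 CPM in those of K1. Among other integrin subunits in TPC1, 5 of 14 rose with nutlin, where 17.5% of all genes were higher. With the combination 4 rose and 2 fell, where 44.2% were called. ITGA3, a laminin receptor subunit, rose by 0.60 ± 0.099 with nutlin, and ITGB2, the beta subunit of leukocyte integrins, by 2.50 ± 0.18 with the combination.

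**Figure D5:**
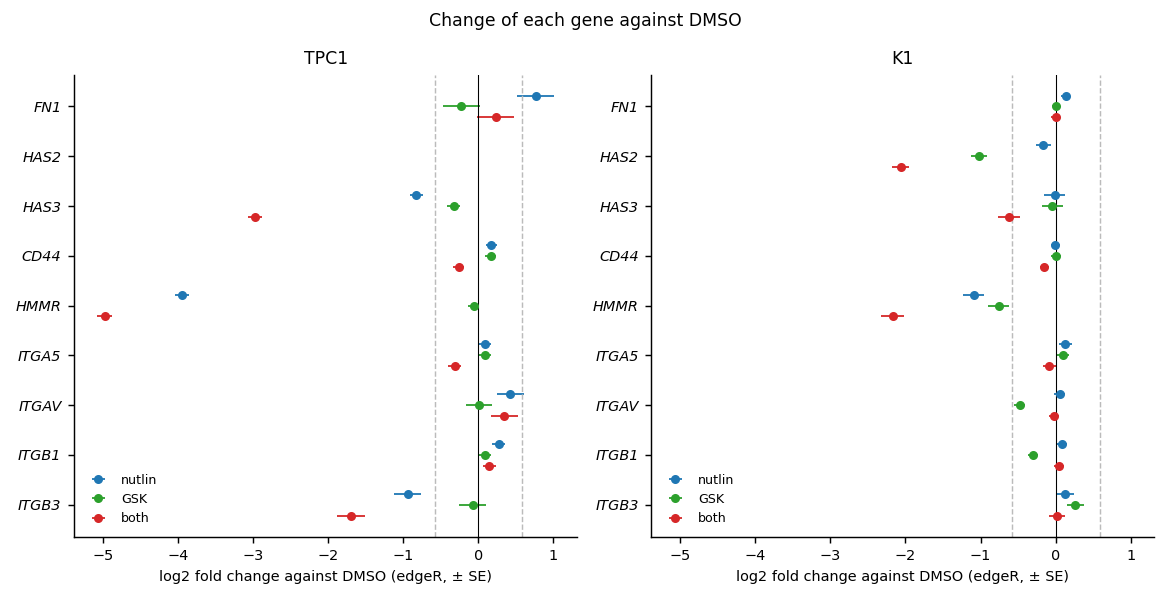
Log2 fold change of each gene against DMSO with its SE, for nutlin (blue), GSK2830371 (green) and the combination (red) in TPC1 and K1. Dashed lines mark 1.5-fold. HMMR lies furthest left in both lines. HAS2 is not drawn in TPC1, and HAS2 in K1 and GSK2830371 in K1 are drawn without a test.

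In K1 with GSK2830371 alone, a contrast the choice of genes used, HMMR was -0.76 ± 0.14 from DMSO and was the 1 of 8 genes past 1.5-fold, where 10.5% of all genes were. ITGAV was at 118 and 133 CPM against 181 and 170 CPM under DMSO, -0.48 ± 0.069. ITGB1 was at 1632 and 1861 CPM against 2226 and 2112 CPM, -0.31 ± 0.064. For both genes the GSK2830371 libraries lay below DMSO without overlap. Across 11526 genes the change in this contrast correlated with the GC content of the transcript (Spearman's rho 0.58, across genes, which are not independent replicates). HAS2, HMMR, ITGAV and ITGB1 have 37.2%, 36.3%, 38.3% and 39.5% GC, against a median of 48.4%. With the trend on GC and length removed, their differences were -0.74, -0.45, -0.23 and -0.12. The part of GC content in these values was not tested. The K1 interaction, which uses the same libraries, had rho -0.60. There 0 of 8 genes were called by edgeR and by DESeq2, against 2.44% of all genes. Without a comparison with all genes, 5 of the 8 had an unadjusted p under 0.05. Of these, ITGAV at 0.40 ± 0.097 passed the adjusted p (0.025 in edgeR) and stayed under 1.5-fold.

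The responses of HAS3, HMMR and ITGB3 differed between the lines. The nutlin change was higher in K1 than in TPC1 by 0.78 ± 0.17 (SE) for HAS3 (adjusted p = 0.0018 in edgeR), 2.82 ± 0.21 for HMMR (adjusted p = 5.1e-08) and 1.03 ± 0.22 for ITGB3 (adjusted p = 0.0021). These were 3 of 8 genes, against 19.2% of all genes (8.73% higher). The HAS3 value fell under 1.5-fold without K1 nutlin replicate 2 (0.55). For the combination the differences were 2.33 ± 0.175, 2.78 ± 0.23 and 1.69 ± 0.23 (adjusted p = 3.6e-08, 1.1e-07 and 1.9e-05 in edgeR), again 3 of 8, against 25.7% of all genes (11.9% higher). Both comparisons use the same DMSO libraries. The HMMR difference was not particular to it. Of the 10 spindle and mitotic genes listed beside it, 9 were also called higher for nutlin (median 2.37) and 9 for the combination (median 1.92).

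Transcripts of proteins that link integrins to the cytoskeleton were counted next. Of 15 such genes in TPC1, 1 rose and 5 fell with nutlin, where 35.5% of all genes were called (18% lower). With the combination 2 rose and 8 fell, where 44.2% were called (21.7% lower). The medians were -0.22 and -0.68. VCL, which encodes the linker vinculin, fell by 1.47 ± 0.088 with the combination, and the tensin gene TNS3 fell by 1.74 ± 0.12. SDC4, a proteoglycan that acts with integrins on fibronectin, rose by 1.34 ± 0.076 with nutlin. In K1, 0 of 15 were called with nutlin by edgeR, where 9.27% of all genes were. An unadjusted p under 0.05 was found for 8 of the 15, a number not compared with all genes. With the combination 2 fell, TNS1 by 1.03 ± 0.051 and TNS3 by 0.62 ± 0.07, where 8.09% of all genes were lower.

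Of 13 matrix partners and proteases of fibronectin tested in TPC1, 2 rose and 3 fell with nutlin, where 17.5% of all genes were higher and 18% lower. With the combination 2 rose and 6 fell, where 44.2% of all genes were called (21.7% lower). MMP14, a membrane protease that cleaves matrix, rose by 1.51 ± 0.096 with nutlin in TPC1. THBS1, the matrix glycoprotein thrombospondin, fell by 1.27 ± 0.26 with nutlin in TPC1 and by 0.87 ± 0.16 in K1, and its difference between untreated K1 and TPC1 was -6.996 ± 0.29. LTBP1, which tethers latent TGF-beta to matrix, was 4.49 ± 0.11 higher in untreated K1. Of 9 regulators of epithelial-mesenchymal change, 6 were higher and 3 lower in untreated K1 (46.2% of all genes were called, 25% higher and 21.2% lower), among them TGFBI (4.62 ± 0.11) and SNAI2 (3.66 ± 0.11) higher and TGFB2 (-4.42 ± 0.19) lower. With nutlin in TPC1, 1 rose and 5 fell, where 17.5% of all genes were higher and 18% lower.

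The genes most like FN1 over the 8 TPC1 libraries, by Pearson's r of log2(CPM + 1) among 10474 genes, were KIRREL (0.995), NRP2 (0.985) and CREB3L2 (0.979). In K1 they were TMEM50B (0.964), ACO1 (0.952) and FBXL2 (0.951), among 10574 genes. HAS2 in K1 was most like TOR4A (0.991), MPP4 (0.986) and CCBE1 (0.985). CD44 was like FAM114A1 (0.986) and PACS1 (0.981) in TPC1, and most like FDPS (0.981), MTMR12 (0.957) and SCD (0.952) in K1. The libraries share treatment groups, so these are descriptions of 8 points each.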

How the data were processed

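The authors trimmed single-end reads of strand-specific polyadenylated libraries, aligned them to GRCh37 with TopHat2 2.0.13, dropped poorly mapped reads and obtained gene counts with HTSeq 0.6.1, with strand. The deposited values are these raw counts, not normalized, for 25369 gene symbols. TPC1 columns are numbered 1 and 3 although the labels number samples 1 and 2, so columns numbered 3 were assigned to their treatment only.

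Counts were fitted with edgeR 4.0.16 (TMM scaling, genes over 0.1 CPM in at least 2 libraries, quasi-likelihood test, Benjamini-Hochberg over all genes), per line with 15273 and 15900 genes tested, and over both lines with 16738. DESeq2 1.42.0 served as an alternative, beside other scalings, no filter, the compared groups alone, a replicate block, each library left out, and a trend on GC and length removed, the last chosen after seeing the data. On simulated counts, 99% of genes changed by log2 1 were called with nutlin in TPC1. The simulation gave every gene the same spread and left FN1 unchanged. Its share therefore does not hold for genes with a wider spread, such as FN1 and ITGB3. HAS2 went through the fits with the other genes, but its planned tests are not reported, since it passed the filter in TPC1 only through DMSO. TPC1 replicate differences correlated between treatments (r 0.43 to 0.57 over 12303 genes), so libraries of the same number share a difference there. Replicate 3 was also the deeper library in every TPC1 treatment, and the labels give no pairs. In K1 r ran from -0.32 to 0.33.

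The genes and lists were chosen with earlier results of these data known. All 9 genes are named. From each list, at most 3 called genes per direction and comparison with the largest change could be named, if the group where they were higher averaged 5 CPM or more. Some genes within these rules are not reported here. Lengths and coordinates are from GENCODE on GRCh37.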

Additional observations from a re-analysis of the deposited data

Results flagged for a closer look

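Of the results above, 6 stood out because the test of the difference between the lines passed. For nutlin these were HAS3 (0.78), HMMR (2.82) and ITGB3 (1.03), and for the combination HAS3 (2.33), HMMR (2.78) and ITGB3 (1.69), each the log2 change in K1 minus that in TPC1. In both comparisons 9 of the 10 spindle and mitotic genes listed beside HMMR were called in the same direction. ITGB1 lay on opposite sides of DMSO with GSK2830371: both K1 libraries lay below the K1 DMSO libraries (log2 ratio of mean CPM -0.31), while both TPC1 libraries, at 1863 and 1745 CPM, lay above the TPC1 DMSO libraries, the higher of which was at 1740 CPM. The TPC1 change was 0.08 ± 0.086 (adjusted p = 0.63 in edgeR) and did not pass. The K1 change fitted in edgeR was -0.31, and -0.12 with the trend on GC and length removed. Neither the part of GC content nor the difference between the lines was tested. Groups of 2 libraries are too small to look for a library that stands apart.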

How the results depend on the processing

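With the GC and length trend removed, the genes past 1.5-fold in K1 with GSK2830371 were 0 in place of 1, and genes called over the whole table were 96 in place of 355. For the K1 combination against nutlin the count was 1 in place of 2 with library totals only and with totals without FN1. Counts without a library ran from 0 to 1 in K1 with GSK2830371, 1 to 2 for the K1 combination against DMSO and against nutlin, 0 to 1 for the K1 interaction (HAS3 at -0.75 without nutlin replicate 1, adjusted p = 0.045 in edgeR), and 2 to 5 for the nutlin difference between lines. FN1 changed sign where it was near 0. In the K1 combination it was -0.000583 with DESeq2 size factors and with the DESeq2 test, -0.070 with the GC trend removed and -0.0017 with the compared groups alone, and from -0.041 to 0.043 without a library. Without a library FN1 ran from -0.48 to 0.086 in TPC1 with GSK2830371, -0.16 to 0.54 with the combination, -0.70 to 0.0061 in the interaction, and -0.60 to 0.13 in the combination difference between lines. The cause was not tested. Genes called over the whole table in TPC1 with GSK2830371 were 214, and 480 with the replicate block, 377 without a filter, 328 with the GC trend removed and 106 with the compared groups alone. In the TPC1 interaction they were 965, and 1573 with the block. In the K1 interaction they were 388, and 59 with the GC trend removed. The replicate block gave 4 of 8 genes in the TPC1 interaction, where 1573 of 15273 genes were called. Between the untreated lines it gave 5 of 7, where 7772 of 16738 genes were called. Beside the ITGB3, ITGAV and FN1 calls given above, the block changed no other call. With 2 libraries a group, small differences are not detectable, and HAS2 in TPC1 is limited by its counts.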
